A study of Rattus norvegicus with 8 samples.

Results

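The mitochondrial ribosomal proteins were taken as every gene spot of the rat arrays whose gene name was Mrpl or Mrps followed by digits. The names gave 81 of the 30367 gene probes and 70 genes: 51 probes for 42 genes of the large subunit (Mrpl) and 30 probes for 28 genes of the small subunit (Mrps). Of these, 70 probes for 61 genes were bright enough to be tested, 46 for the large and 24 for the small subunit. The other 11 were Mrpl3, Mrpl46, Mrpl52, Mrps2, Mrps5, Mrps14, Mrps18b, Mrps27, Mrps28 and 1 probe each of Mrpl30 and Mrpl50.

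The study compared castrated adult male Wistar rats, aged 120 ± 12 days, that received testosterone propionate, an androgen ester, with castrated rats labelled as controls. The dose was a single 4 mg/kg, given subcutaneously in corn oil (1 mL/kg). Treated and control RNA shared 2-colour Agilent arrays, 4 arrays at 8 h and 4 at 24 h, with the dyes swapped on part of each set. Both arms carry the castration, so no intact animal enters any comparison. The series title speaks of muscle atrophy. The labels leave unnamed the muscle, any oil given to the controls, and whether RNA was pooled over animals; the p-values measure only the spread between these RNA samples.

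The mitochondrial ribosome translates the few proteins that mitochondrial DNA encodes, which are core subunits of the respiratory chain and ATP synthase. Its RNA is made inside the organelle, while its proteins are encoded in the nucleus, made in the cytosol and imported. Some of these proteins belong to families shared with bacterial ribosomes, and others exist only in mitochondria. Skeletal muscle fibres rely on this machinery to maintain their oxidative capacity.

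Each probe is a 60-base sequence, and 4 sets are shown because results below turn on them. Mrpl54, a mitochondria-specific protein of the large subunit, has a pair of overlapping probes at chr7:9938921-9938980 and chr7:9938902-9938960 (rn4, plus strand) of which 1 passed the test at 24 h; capitals mark the bases at which they differ in their 41 shared positions.
Mrpl54 probe A_42_P613321: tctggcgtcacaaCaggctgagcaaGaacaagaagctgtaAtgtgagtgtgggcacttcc
Mrpl54 probe A_64_P004086: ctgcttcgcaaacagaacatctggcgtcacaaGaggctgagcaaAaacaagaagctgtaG
Counted from 1 at the start of the overlap, the differences from the first probe to the second are C14G, G26A and A41G. The 41 positions are those of the aligned sequences. The rn4 interval of A_64_P004086 spans 59 bases and thus not the whole probe. Mrpl41, also mitochondria-specific, has overlapping probes at chr3:5120436-5120495 and chr3:5120420-5120479 (rn4, minus strand) with 1 difference in 44 positions, C32T.
Mrpl41 probe A_64_P127357: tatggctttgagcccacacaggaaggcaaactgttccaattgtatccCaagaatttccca
Mrpl41 probe A_64_P135305: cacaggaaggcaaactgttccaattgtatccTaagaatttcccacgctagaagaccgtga
The probes of Mrpl51, at chr4:161313262-161313321 (plus strand), and Mrps30, at chr2:50510698-50510757 (minus strand), were single probes that passed the test in opposite directions. Read from the first base, the Mrpl51 probe has no stop codon and the Mrps30 probe ends in 1, in capitals.
Mrpl51 probe A_44_P1028282: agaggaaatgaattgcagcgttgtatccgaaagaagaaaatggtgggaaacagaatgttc
Mrps30 probe A_64_P004914: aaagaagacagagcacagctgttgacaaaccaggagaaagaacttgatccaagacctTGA
The RefSeq gene table lists pseudogenes of 23 member genes, among them Mrpl32, Mrpl45 and Mrpl54 with 1 each and Mrpl30 with 9. A probe's signal from such copies was not tested.

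Across the series, 12074 probes were kept. Skeletal muscle markers were kept for 14 of 15 genes on the arrays, while none of the 8 probes for accessory gland epithelium was bright enough. The first 8 h replicate stood apart in spread, with a standard deviation of its log2 ratios over probes of 0.437 against 0.18 to 0.198 in the other 8 h arrays. In agreement, 8 h replicate 2 stood apart, correlating over probes at -0.12 with replicate 3 and -0.036 with replicate 4. The remaining 8 h pairs correlated at 0.274 to 0.372, and pairs of 24 h arrays at 0.224 to 0.701. Because 1 slide held the 8 h arrays and another the 24 h arrays, a time effect and a slide effect cannot be told apart. In these bulk samples, neither can fewer cells of a type be told apart from less RNA per cell. All values below are log2 ratios of testosterone over control.

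At 24 h a few mitochondrial ribosomal proteins rose, fewer fell, and most did not pass the test. Of the 70 tested probes, 5 rose and 2 fell at an adjusted p under 0.05, and 63 did not pass. That is 10% of the member probes, beside 6.92% of all probes tested (4.15% higher and 2.77% lower). At an unadjusted p under 0.05 by limma, 15 of the 70 members stood beside 21.9% of all probes. The coefficients of members ran from -0.56 to 0.51, and their median was 0.03 against 0.00 for all kept probes. The 95% interval of the change lay within 0.5 log2 of 0 for 63 of the 70 member probes, or 90% (85.5% of all probes). None of the kept member probes was saturated, and 57 were well above background in both channels of all 8 arrays, the 7 that passed among them.

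**Figure D1:**
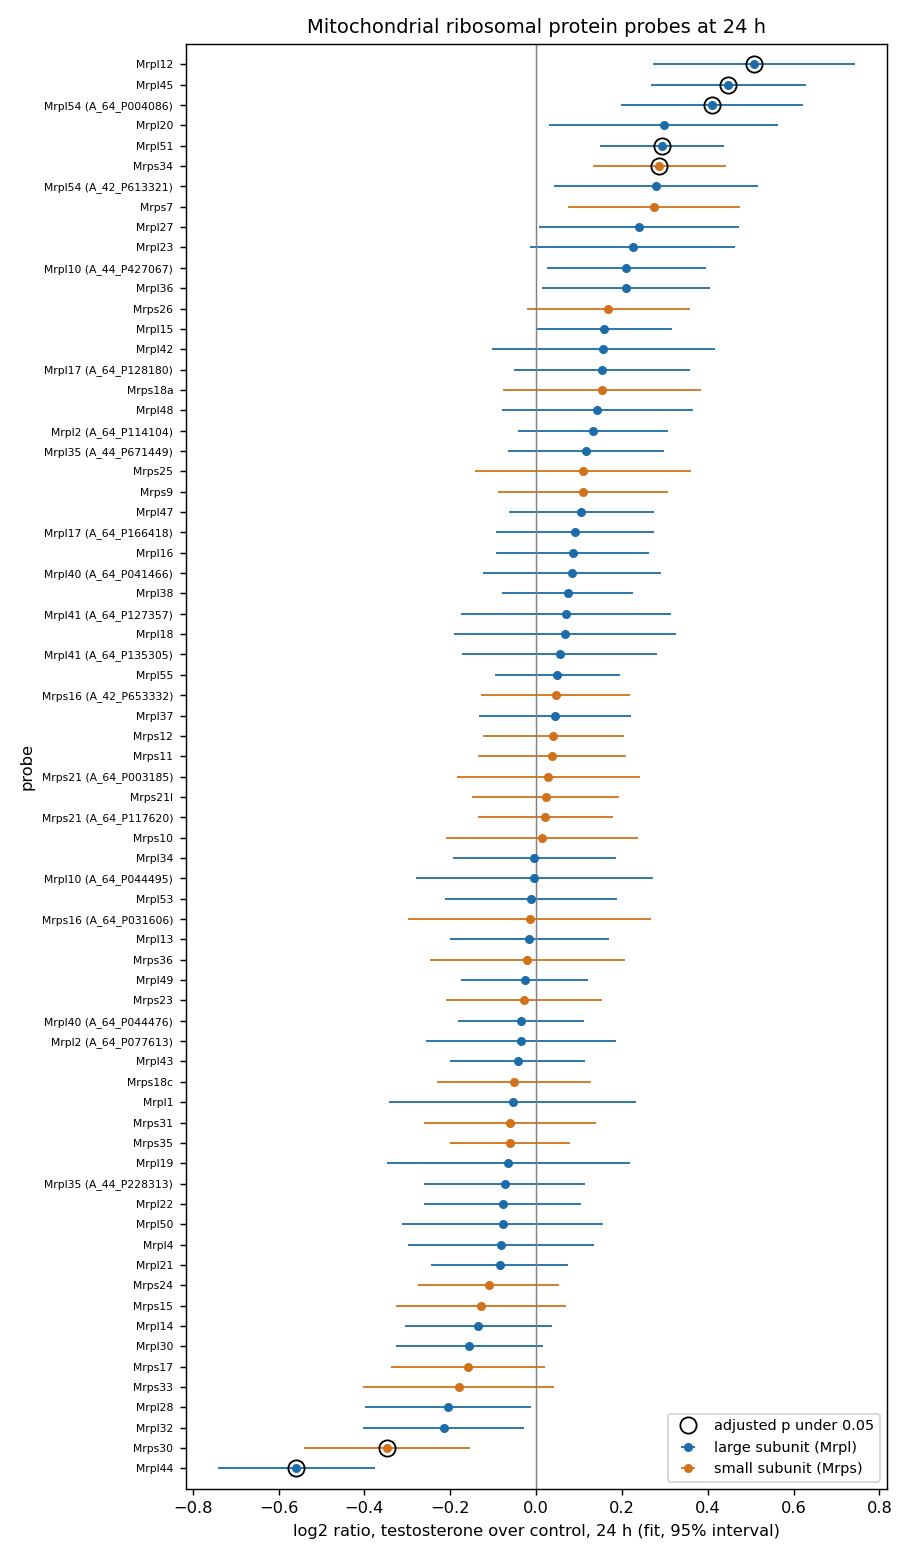
Each row is 1 kept probe of a mitochondrial ribosomal protein, ordered by its fitted log2 ratio of testosterone over control at 24 h (x axis), with the 95% interval as a bar; blue marks Mrpl and orange Mrps, and rings mark an adjusted p under 0.05. Values run from -0.56 (Mrpl44) to 0.51 (Mrpl12), and most intervals cross 0.

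Mrpl12, the protein of the flexible stalk of the large subunit to which translation factors bind, was the highest member. Its 24 h arrays read 0.44, 0.40, 0.57 and 0.62, all above 0, for a fitted change of 0.51 ± 0.11 (SE, n = 4; 1.42-fold; adjusted p = 0.0206). Its 8 h arrays read 0.84, 0.10, 0.10 and 0.03, so the 2 times overlapped only through the first 8 h replicate. Mrpl10, which forms the base of the same stalk, had 2 probes: A_44_P427067 read 0.39, 0.16, -0.04 and 0.33 at 24 h (0.21, adjusted p = 0.171), and A_64_P044495 read 0.21, 0.10, -0.19 and -0.13. Neither Mrpl10 probe passed, and their signs differed.

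Mrpl45, a mitochondria-specific protein near the exit of the peptide tunnel that ties the ribosome to the inner membrane, read 0.27, 0.42, 0.71 and 0.39 at 24 h. It rose by 0.45 ± 0.08 (SE, n = 4; 1.36-fold; adjusted p = 0.0115). At 8 h its arrays read -0.05, 0.02, -0.01 and 0.16, all below every 24 h array. Oxa1l, the insertase of the inner membrane that works beside this exit, fell on 1 of its 2 probes, by 0.41 (adjusted p = 0.0115), with all 4 arrays at 24 h between -0.46 and -0.32; its other probe stood at -0.09.

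Mrpl44, a mitochondria-specific protein with a ribonuclease III-like fold, was the lowest member. Its 24 h arrays read -0.81, -0.43, -0.38 and -0.61, for a fall of 0.56 ± 0.08 (SE, n = 4; 1.47-fold lower; adjusted p = 0.00417). Its 8 h arrays read -0.16, -0.19, -0.03 and -0.13, below 0 on every array but above every 24 h value. Mrpl44 thus had the same sign on all 8 arrays, and its difference between times was -0.43 (adjusted p = 0.0985).

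Mrpl54 rose on the probe A_64_P004086, whose 24 h arrays read 0.69, 0.49, 0.37 and 0.08 (0.41 ± 0.10, SE, n = 4; adjusted p = 0.0322). The overlapping probe A_42_P613321 read 0.48, 0.51, 0.28 and -0.15 on the same arrays (0.28 ± 0.11, SE; adjusted p = 0.157). Both probes were highest in replicates 1 and 2 and lowest in replicate 4, and only the former was above 0 on every array. At 8 h the pair read 0.38, 0.24, 0.19 and 0.08 on A_64_P004086 and 0.39, 0.22, 0.18 and 0.05 on A_42_P613321.

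Mrpl51, another mitochondria-specific protein of the large subunit, read 0.40, 0.30, 0.14 and 0.33 at 24 h and rose by 0.29 ± 0.06 (SE, n = 4; adjusted p = 0.027). Mrps34, a mitochondria-specific protein of the small subunit needed for that subunit's stability, read 0.33, 0.08, 0.30 and 0.43 and rose by 0.29 ± 0.07 (SE, n = 4; adjusted p = 0.0378). Their 8 h arrays lay between -0.04 and 0.22 for Mrpl51 and between -0.04 and 0.28 for Mrps34, and both overlapped the 24 h arrays.

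Mrps30 carries a small-subunit name but sits in the large subunit. Its 24 h arrays read -0.61, -0.53, -0.08 and -0.18, all below 0, with the 2 arrays whose treated RNA was labelled with Cy5 the lower pair; it fell by 0.35 ± 0.09 (SE, n = 4; adjusted p = 0.0414). At 8 h it read 0.45, 0.14, -0.16 and 0.24. Mrps18a, also named for the small subunit and placed in the large one, read 0.21, 0.34, 0.10 and -0.04 at 24 h and did not pass (0.15, adjusted p = 0.447). Mrps36, now named Kgd4 and counted as a part of the 2-oxoglutarate dehydrogenase complex, read -0.05, -0.32, -0.04 and 0.33 (-0.02, adjusted p = 0.946).

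**Figure D2:**
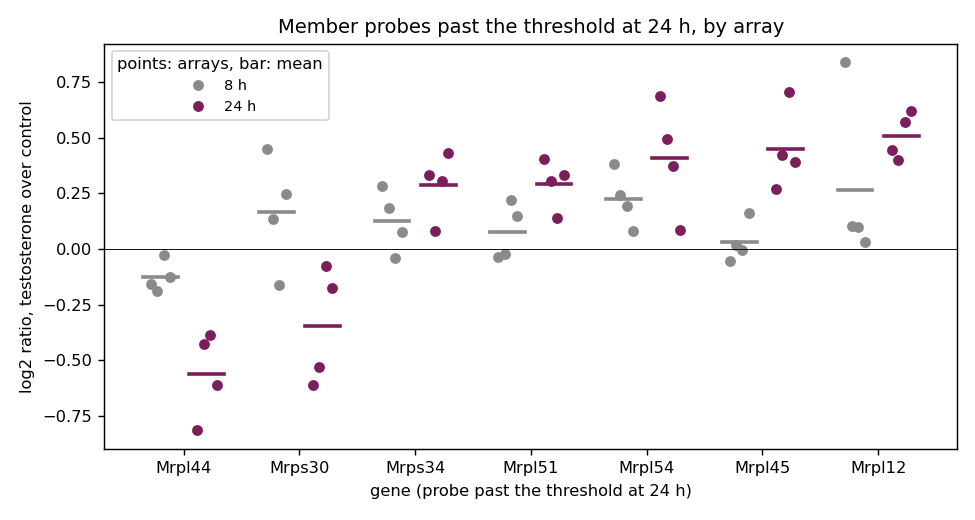
Points are single arrays (grey 8 h, purple 24 h; 4 each) for the 7 member probes with an adjusted p under 0.05 at 24 h, and bars are their means; the y axis is the log2 ratio of testosterone over control. All 4 arrays at 24 h lie on one side of 0 for each of the 7 probes, and the 8 h arrays of Mrpl45 and Mrpl44 do not overlap their 24 h arrays.

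Of the members named for their size or sign without passing, Mrpl20, a large-subunit protein that binds ribosomal RNA early in assembly in bacteria, read 0.34, 0.12, 0.13 and 0.60 at 24 h (0.30, adjusted p = 0.178). Mrps7, which lies in the head of the small subunit, read 0.40, 0.25, 0.18 and 0.26 (0.27, adjusted p = 0.102). Mrpl32, whose maturation depends on an inner-membrane protease, read -0.21, -0.33, -0.31 and -0.01 (-0.22, adjusted p = 0.165). Mrps33 of the small subunit read -0.37, -0.21, -0.03 and -0.10 (-0.18, adjusted p = 0.335). These 4 had 1 sign on all 4 arrays at 24 h, as did 13 member probes above 0 and 7 below 0 in all. Over all probes, 15.4% were above 0 and 13.5% below 0 on all 4 arrays.

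Agreement between probes of a gene was limited. Of the 9 genes with more than 1 kept probe, 5 had probes of opposite sign at 24 h (Mrpl2, Mrpl10, Mrpl35, Mrpl40 and Mrps16), and none of these probes passed. Mrpl2, a protein of the catalytic core, stood at -0.04 and 0.13, and Mrpl35 at -0.07 and 0.12. Mrpl40 stood at -0.04 and 0.08, and Mrps16 at -0.02 and 0.05. The overlapping Mrpl41 probes stood close together, at 0.07 (A_64_P127357) and 0.05 (A_64_P135305) at 24 h and at 0.22 and 0.24 at 8 h.

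The calls at 24 h depended on single arrays and on the normalization. Leaving out 24 h replicate 2 or 3 left 1 of the 7 calls (Mrpl44), with 3.21% and 2.98% of all probes called, against 6.92%. Without 24 h replicate 1, Mrpl44 and Mrpl45 passed (1.72% of all probes). Without 24 h replicate 4, Mrpl44, Mrpl45 and the Mrpl54 probe A_64_P004086 kept their calls, and the other Mrpl54 probe, A_42_P613321, passed as well (0.43; 3.46% of all probes). Without 8 h replicate 3, 3 calls were left (Mrpl12, Mrpl45 and Mrpl44; 4.54%), and without 8 h replicate 4, 6, Mrps34 being lost (5.4%). The scanner's processed signals left Mrpl45 higher and Mrpl44 lower (4.76%), and centring each array without loess left 0 (3.62%). The signs of the 7 probes held in each of these fits.

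Over all probes tested, 6.92% were called at 24 h (4.15% higher and 2.77% lower). By the class lists, 6 of the 7 calls at 24 h were on mitochondria-specific proteins. In that class, 4 of the 25 kept probes rose and 2 fell (24%). Of the 43 kept probes of families shared with bacteria, 1 rose, that of Mrpl12, and none fell (2.33%). The count leaves out the probes named mrpl9, mrpl11 and mrpl24, which belong to such families but lie outside the spelling of the name rule. Of these, mrpl9 passed at 24 h, with a fall of 0.70. The medians of the classes were 0.05 and 0.03, and the standard deviation of the coefficients over probes was 0.219 in the former and 0.149 in the latter. The list of shared families includes Mrpl55, a mitochondria-specific protein, whose probe did not pass at 24 h (0.05, adjusted p = 0.73). Mrps21l and Mrps36 are in neither list. The counts, medians and standard deviations of the classes follow the lists as they stand. The difference between the classes was not tested.

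**Figure D3:**
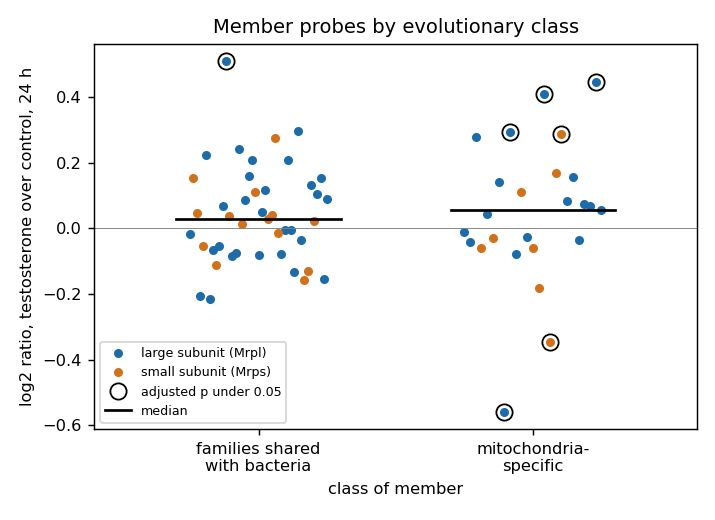
Points are kept member probes, grouped on the x axis into families shared with bacteria (43) and mitochondria-specific proteins (25), with the fitted log2 ratio of testosterone over control at 24 h on the y axis; colours mark the subunit by name, rings an adjusted p under 0.05 and lines the class medians. Of the ringed probes 1 lies in the class shared with bacteria and 6 in the mitochondria-specific class. Mrpl55, a mitochondria-specific protein, is plotted in the class shared with bacteria, as listed. Mrps21l and Mrps36, which are in neither list, and probes with lower-case names, mrpl9 among them, are not shown.

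At 8 h none of the 70 member probes passed, beside 0.0249% of all probes tested (3 probes; 0.0166% higher and 0.00829% lower); 10 member probes had an unadjusted p under 0.05 by limma, and 16.9% of all probes did. The coefficients ran from -0.17 to 0.38, and the smallest adjusted p of a member was 0.27. The median of the members was 0.07 against -0.01 for all kept probes, and 48 of 70 members (68.6%) were above 0 against 47.2% of all. By array, 51, 30, 42 and 45 of the 70 probes were above 0, so the first replicate held the highest count and the second the lowest. On all 4 arrays, 10 member probes were above 0, beside 9.6% of all probes, and 5 were below 0, beside 11.8%.

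The highest members at 8 h among those with 1 sign on all arrays were Mrps18a (0.73, 0.24, 0.17 and 0.21), Mrpl12, Mrpl15 (0.39, 0.22, 0.26 and 0.11) and Mrpl41 (0.60, 0.01, 0.14 and 0.20 on A_64_P135305), and none passed. In each of these the first replicate was the highest. Mrpl1, the mobile stalk protein at the exit for spent tRNA, had the highest coefficient of all, 0.38, with arrays at 1.06, 0.20, -0.04 and 0.28, and Mrps36 read 0.64, 0.11, 0.15 and -0.09. The lowest with 1 sign were Mrpl47 (-0.21, -0.19, -0.13 and -0.12), Mrpl16 (-0.05, -0.14, -0.10 and -0.25) and Mrpl44. Leaving out 8 h replicate 2 made 5 member probes pass as higher at 8 h, Mrpl12 among them (0.39), beside 1293 of all probes, and leaving out replicate 1 made none pass.

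**Figure D4:**
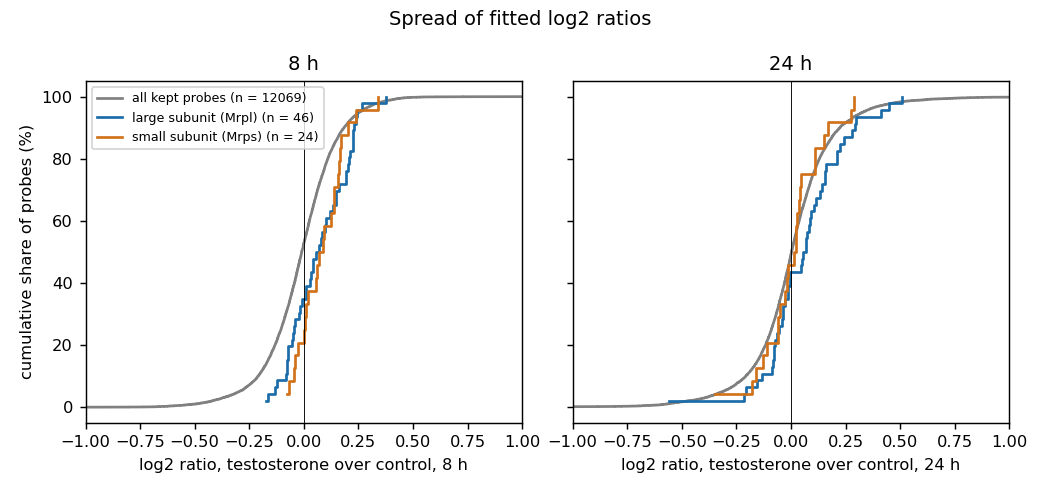
The curves give the cumulative share of probes (y axis, percent) at or below each fitted log2 ratio of testosterone over control (x axis) at 8 h and 24 h, for all kept probes (grey), Mrpl (blue, n = 46) and Mrps (orange, n = 24). At 8 h both member curves lie to the right of the grey curve around 0, with medians of 0.06 and 0.08 against -0.01, and at 24 h all 3 run closer together.

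The medians of large and small subunit lay close together at both times. At 24 h the large subunit had 4 probes that rose and 1 that fell of 46 (10.9%). The small subunit had 1 and 1 of 24 (8.33%). Of all probes tested, 6.92% were called (4.15% higher and 2.77% lower). The array medians of the large subunit at 24 h were -0.03, 0.04, 0.07 and 0.07, and those of the small subunit 0.00, 0.02, -0.00 and 0.02. Large minus small averaged 0.03 ± 0.05 (SD, n = 4) at 24 h, with 1 array below 0 and 3 above.

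At 8 h the array medians were 0.21, -0.05, 0.04 and 0.05 for the large subunit and 0.29, 0.02, 0.05 and 0.04 for the small subunit, and the difference averaged -0.04 ± 0.05 (SD, n = 4). At both times the mean difference was smaller than its standard deviation over arrays. That is the spread of single arrays and not the error of the mean, and the difference was not tested. The 8 h level depended on the first 2 arrays: the medians of the fitted coefficients, 0.06 (large) and 0.08 (small), became 0.04 and 0.01 without replicate 1, and 0.14 and 0.13 without replicate 2. Moving Mrps30 and Mrps18a to the large subunit, where they sit, and leaving out Mrps36 left large minus small, by the medians of fitted coefficients, at 0.04 at 24 h and turned it from -0.02 to 0.01 at 8 h. The 24 h value became 0.02 with the processed signals or without 24 h replicate 1, 0.07 without 24 h replicate 2, and 0.004 without 24 h replicate 4.

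**Figure D5:**
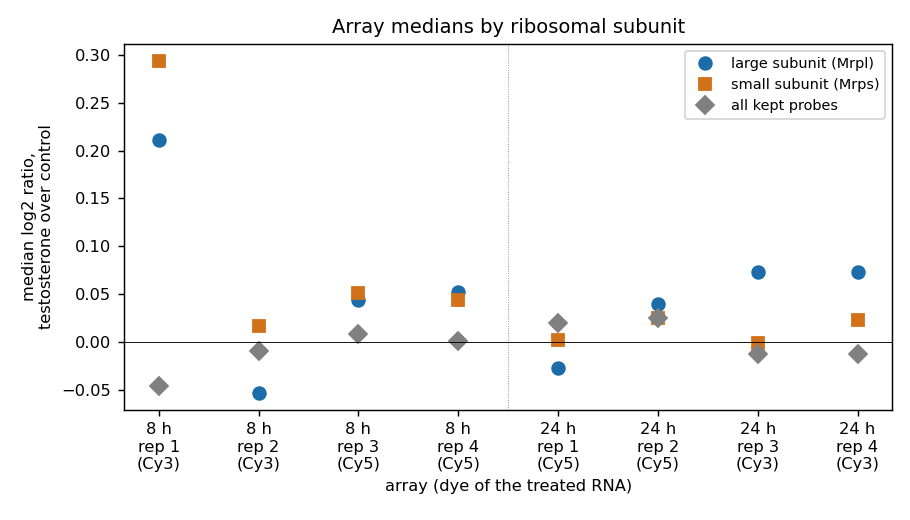
Each symbol is the median log2 ratio of testosterone over control (y axis) on 1 array (x axis, with the dye of the treated RNA) over Mrpl probes (blue), Mrps probes (orange) or all kept probes (grey). Both subunits are highest on the first 8 h array, at 0.21 and 0.29, and lie between -0.05 and 0.07 on the other 7.

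The change between 8 h and 24 h was tested directly, and none of the 70 member probes passed, beside 1.26% of all probes tested (0.729% higher and 0.53% lower at 24 h); 11 member probes had an unadjusted p under 0.05 by limma, and 16% of all probes did. Mrps30 had the most negative difference (-0.51 ± 0.12, SE; adjusted p = 0.0723), followed by Mrpl44, Mrpl1 (-0.43, adjusted p = 0.282) and Mrps33 (-0.42, adjusted p = 0.18). The most positive were Mrpl45 (0.42, adjusted p = 0.107), Mrpl10 on A_44_P427067 (0.29, adjusted p = 0.267), Mrpl47 (0.27, adjusted p = 0.256) and Mrps7 (0.26, adjusted p = 0.353). The members Mrpl30 and Mrpl32 were above 0 on every 8 h array and below 0 on every 24 h array, beside 0.932% of all probes. For Mrpl32 the values closest to 0 were 0.01 at 8 h and -0.01 at 24 h. No member had the reverse pattern, beside 1.07%. Without 8 h replicate 2, 4 member probes passed as lower at 24 h than at 8 h, Mrps30 (-0.60) and Mrps33 (-0.57) among them, beside 616 of all probes in either direction.

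Outside the spelling of the name rule, 3 probes carried lower-case names, mrpl9, mrpl11 and mrpl24, and were examined after their values were seen. The probe named mrpl9, a large-subunit protein of a family shared with bacteria, had a lower 24 h coefficient than any member, with arrays at -0.66, -0.38, -0.95 and -0.79 and a fall of 0.70 ± 0.09 (SE, n = 4; 1.62-fold lower; adjusted p = 0.00277). At 8 h it read 0.20, -0.28, 0.09 and -0.04, and its difference between times passed (-0.69, adjusted p = 0.0411). The probes named mrpl24 (0.17, adjusted p = 0.162) and mrpl11 (0.17, adjusted p = 0.214) did not pass at 24 h. With these added, mrpl9 was the 1 ribosomal protein of the set to pass between times.

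Among 7 kept probes of mitoribosomal proteins with other names, 1 rose at 24 h: Gadd45gip1, a large-subunit protein, read 0.43, 0.12, 0.46 and 0.45 (0.36 ± 0.08, SE, n = 4; adjusted p = 0.0224). Of the 13 kept probes of translation factors and partners, 1 fell (Oxa1l, above), and of the 13 of ribosome assembly factors, 1 fell. The latter was Noa1, a GTPase of small-subunit assembly, which read -0.45, -0.45, -0.10 and -0.14 (-0.29 ± 0.07, SE, n = 4; adjusted p = 0.0358). Calls made up 14.3% of the mitoribosomal probes with other names and 7.69% of both the translation and the assembly list. Of all probes tested, 6.92% were called at 24 h. None passed at 24 h of the 12 probes of mitochondrial tRNA synthetases, the 11 of mitochondrial DNA transcription, the 7 of biogenesis regulators or the 29 of protein import. The import probes had a median of 0.08 with 24 of 29 above 0, against 50.7% of all probes. At 8 h and between times no probe of these lists passed, beside 0.0249% and 1.26% of all probes tested.

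Promoters of 58 members were found in the RefSeq table (GRCr8; 250 bases before to 50 after each start). The letters CCGGAAG, the core bound by ETS factors such as GABP, stood on either strand in 31% of member promoters against 10.7% of 21842 protein-coding and 8.75% of all 33469 promoters. TGCGCA, the core of the NRF1 site, stood in 24.1% against 8.74% and 7.24%. AAGATGGC, bound by YY1, stood in 24.1% against 3.68% and 3.17%, and at least 1 of these 3 in 35 of the 58 member promoters (60.3%, against 20.6% of protein-coding promoters). AGAACA, a half-site of androgen and glucocorticoid receptors, stood in 17.2% against 18.1% and 20.7%. The ETS and YY1 letters can overlap by AAG, which occurred in 0 member promoters although 6 hold both, and a match describes the sequence only. Among the members past the threshold at 24 h, AGAACA stood in the promoters of Mrpl44, Mrpl12 and Mrpl51. It was absent from those of Mrpl45, Mrpl54 and Mrps30, and no promoter of Mrps34 was found. The promoters of Mrpl44, the lowest member at 24 h, and Mrpl45, the second highest, both hold TGCGCA before the start. A stretch of 60 bases of each is shown with it in capitals, at chr9:88554896-88554955 and chr10:82804866-82804925 (GRCr8, plus strand).
Mrpl44: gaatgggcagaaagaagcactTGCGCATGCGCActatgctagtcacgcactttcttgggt
Mrpl45: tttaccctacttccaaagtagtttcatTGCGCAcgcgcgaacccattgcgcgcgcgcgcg
The promoters of Mrpl12, Mrpl51, Mrpl54 and Mrps30 lack TGCGCA. Any link between these letters and the 24 h changes was not tested.

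Some markers of several cell types changed at 24 h, when 4.15% of all probes tested rose and 2.77% fell. At 24 h 5 of 12 kept macrophage probes rose and none fell (range -0.03 to 0.69, array medians 0.20 to 0.56), while at 8 h all 12 stood below 0 without passing. Of 16 skeletal muscle probes, 1 rose (Myh1, a fast myosin heavy chain, by 1.33) and 4 fell at 24 h, with array medians between -0.50 and -0.22. Of 10 fibroblast probes at 24 h, 3 rose and none fell, while 6 stood below 0 and the median was -0.02. Of 7 endothelial probes, 1 rose and 3 stood below 0 (median 0.01), and of 3 adipocyte probes 1 rose and all stood above 0, and none of 7 Schwann cell probes passed. None of 6 erythrocyte probes passed, with all 6 below 0 at 8 h and above 0 at 24 h. The part of these cell types in the values of the mitochondrial ribosomal proteins was not tested.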

How the data were processed

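Each of 8 arrays held treated and control RNA; whether control RNA was shared between arrays is not given in the labels. Per the labels' protocols, Trizol was used for extraction and the Quick Amp system for labelling. The submitters' processing notes name Agilent Feature Extraction 9.5.3.1. The deposited mean signals and local backgrounds are linear intensities, per the file headers, and the processed signals are intensities corrected for background and dye. The authors' deposited value table holds log2 ratios of unstated scale, centring and direction; its values equalled processed-signal ratios, treated over control by the labels' dyes, within 1.35e-05, with column medians from -0.144 to 0.0896. The deposited log10 ratio, red over green per the file headers, was only compared with these values.

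In limma 3.58.1 (R 4.3.3), normexp (offset 50) corrected the mean signals and loess normalized each array, leaving out control spots and outlier flags. Spots of a probe were averaged. Kept probes were well above background on 3 or more of the 4 arrays of some RNA group (control or treated, either time). All 8 arrays entered 1 fit with a coefficient per time and for the dye, so that the 24 h calls borrow their spread and dye term from the 8 h arrays too. Treated RNA carried Cy3 in 8 h replicates 1 and 2 and 24 h replicates 3 and 4, and Cy5 in the others. P-values are two-sided, adjusted by Benjamini-Hochberg over all kept probes, with a threshold of 0.05. The method was tested on simulated data. The number of arrays limits the precision.

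The text names member probes past the threshold, the 4 highest and 4 lowest at each time among those of 1 sign on all 4 arrays, the 4 highest and lowest differences between times, members whose probes disagree, and Mrps18a, Mrps30 and Mrps36; list genes are named if past the threshold. Class and gene lists came from general knowledge. Members and lists were chosen with earlier results of these data known. Probe positions are on rn4, per the file headers. Names of 76 member probes were matched to RefSeq by accession.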

Additional observations from a re-analysis of the deposited data

Results flagged for a closer look

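Among 51 sets of 4 arrays checked, 5 held an array whose gap to its nearest neighbour was over 0.829 of the set's range, a gap that chance gives in about 1 in 20 sets. In 4 of the 5 it was the first 8 h replicate: Mrps18a at 0.73 against 0.17 to 0.24 on the other arrays, Mrpl12 at 0.84 against 0.03 to 0.10, Mrpl10 (A_44_P427067) at -0.28 against -0.02 to -0.00, and the small-subunit median at 0.29 against 0.02 to 0.05. The remaining one was Mrpl35 (A_44_P671449) on 24 h replicate 4, at 0.23 against 0.07 to 0.09.

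Mrpl30 and Mrpl32 were above 0 on all 4 arrays at 8 h and below 0 on all 4 at 24 h. Mrpl30, a large-subunit protein, ranged from 0.13 to 0.48 on the 8 h arrays and from -0.22 to -0.05 on the 24 h arrays. Mrpl32 ranged from 0.01 to 0.42 and from -0.33 to -0.01, so its sign at each time rested on a value close to 0. The differences between times were -0.38 for Mrpl30 and -0.42 for Mrpl32, each with an adjusted p of 0.116, which does not pass.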

How the results depend on the processing

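No named probe changed sign among those past the threshold at 24 h, whichever alternative was run. The main fit gave 5 higher and 2 lower members at 24 h, with 6.92% of all probes called. Centring without loess gave 0 and 0 (3.62% of all probes), and the processed signals and the authors' values each 1 and 1 (4.76%). Leaving out the dye coefficient gave 4 and 1 (5.64%). Array weights gave 6 and 3 (13.8%), and each time fitted alone 7 and 2 (14.1%). Leaving out single arrays gave 0 to 6 higher and 1 to 2 lower (1.72% to 11%). Leave-one-out fits gave 0 to 5 members higher at 8 h and 0 to 4 lower between times. Array weights, and adding the lower-case names, each gave 1 member lower between times. The lower-case names, and leaving out Mrps21l, a locus resembling Mrps21, were chosen after seeing the data, and the latter moved no count of members. Over all probes, calls at 24 h ran from 208 (without 24 h replicate 1) to 1708 (each time fitted alone) against 835. Those at 8 h ran from 0 to 8 against 3, or 1293 without 8 h replicate 2, and those between times from 0 (centring without loess) to 616 (without 8 h replicate 2) against 152.

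The labels number the replicates alike at both times, but the arrays gave no clear sign that the numbers pair the samples. Same-numbered arrays' deviations from their time's mean correlated at -0.257, 0.174, -0.165 and -0.071 over probes. None matched best with its own number. Same-numbered arrays carried the treated RNA in opposite dyes, so a probe's dye effect enters their deviations with opposite signs and lowers these correlations. With the dye removed within each time, they were 0.0246, 0.0246, 0.0238 and 0.0238. With the replicate block, 3 members were higher and 1 lower at 24 h, while calls over all probes went from 6.92% to 7.71%.

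Centring without loess moved the median of all kept probes to 0.12 at 8 h and 0.15 at 24 h; the large-subunit medians became 0.35 and 0.33, the small-subunit medians 0.34 and 0.22, and large minus small 0.11 at 24 h, against 0.04 (0.004 to 0.0651 leaving out single arrays). The small-subunit median at 24 h, 0.02, became 0.0382 with processed signals or the authors' values and -0.0203 with a strict filter, and -0.008 to 0.038 leaving out single arrays. Large minus small at 8 h, -0.02, became -0.064 with processed signals or the authors' values and 0.0375 with array weights, and -0.0433 to 0.0292 leaving out arrays. Its change between times, 0.10, became 0.0419 with processed signals or the authors' values, 0.0463 without background correction, 0.0236 with array weights, -0.0026 with no filter on dim probes, 0.0153 with subunits by structure, 0.0359 with 1 value per gene, and 0.0204 to 0.105 leaving out arrays. The causes were not tested. The fit of each time alone gives no difference between times.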
